A study of Mus musculus with 24 samples.

Results

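The anterior cingulate cortex (ACC) of male mice was compared with their medial prefrontal cortex (mPFC) 2 weeks after spared nerve injury (SNI). The comparison set the 3 male SNI libraries of the mPFC against the 3 male SNI libraries of the ACC, 6 of the 24 libraries of the series, and took in every gene. Of 33364 genes listed, 16872 passed the filter on low counts and were tested. All mice were C57BL/6 males per the labels (C57BL/6J in the study's methods), 3 months old, and all carried the same injury. In SNI, branches of the sciatic nerve are cut while a neighbouring branch is spared, which gives lasting neuropathic pain. Each library was made from total RNA of punched tissue pooled from several animals, so the pool is the replicate. The spread between pools holds less variation than that between single animals. The sources do not say whether pools that carry the same number in the 2 regions came from the same mice. The question here was which regional differences are present after the injury. The same contrast in male sham-operated mice (3 pools per region, C57BL/6, 3 months old) and in female SNI mice (3 pools per region, C57BL/6, 3 months old) stands beside it, and neither shares a library with it.

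The mPFC and the ACC are neighbouring fields of the frontal midline cortex. Both hold glutamatergic projection neurons in layers, several classes of GABAergic interneuron, glia and vessels. The ACC is known for its part in the unpleasantness of pain, and the mPFC for control of mood, of threat responses and of descending pain pathways. Fast-spiking interneurons, which carry parvalbumin, need ion channels that open and close rapidly, and thick axons carry heavy neurofilaments. Neuropeptides, hormone receptors and adhesion molecules are long known to differ between cortical fields.

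The 6 libraries held 25909337 to 32864391 reads counted on genes, and the floor of 3 counts taken here lay at 0.0913 to 0.116 CPM, that is counts scaled to a library of 1000000 reads. Pools of the same region differed by a chi-square per gene of 4.07 to 9.01, where counting error alone gives about 1. The Y-linked genes summed to 97 to 109 CPM in the mPFC and 95.6 to 112 CPM in the ACC pools, as male labels require. Glutamatergic neuron markers summed to 7721 to 8139 and 7092 to 7984 CPM, so cortical neurons were present in every pool. Ttr, a choroid plexus transcript, had 1975 counts in mPFC pool 2 and 10 to 124 counts in the other 5 libraries. Within each library, a gene's deviation from its mean over the series rose with its GC content, with a Spearman correlation over genes of 0.054 in ACC pool 3 and 0.256 to 0.675 in the other 5 libraries. In the contrasts set beside this one, the correlation ran from −0.574 to 0.619 in the male sham libraries and from −0.548 to 0.09 in the female SNI libraries.

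Below, levels are CPM after TMM scaling, given in the order of pools 1, 2 and 3. A difference is the log2 of the mPFC level over the ACC level from edgeR, ± its standard error (SE), so that a negative value means a higher level in the ACC. A gene was called at an adjusted p under 0.1 in edgeR's quasi-likelihood test. Positions are on GRCm38, from GENCODE release M21.

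After SNI, 3536 of 16872 genes (21%) differed between the regions. Of these, 1753 (10.4%) were higher in the mPFC and 1783 (10.6%) were higher in the ACC. Most differences were small. The median called gene differed by 1.25-fold, and 248 genes differed by more than 2-fold, 101 of them higher in the ACC and 147 in the mPFC. Of the called genes, 3237 were protein coding. The 3 pools of a region all lay above the 3 of the other for 5556 genes (32.9%), among them 3312 of the called genes. The number of calls fell to 2187 without ACC pool 1 and to 2132 without mPFC pool 2, and lay between 2654 and 3838 when another library was left out.

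**Figure D1:**
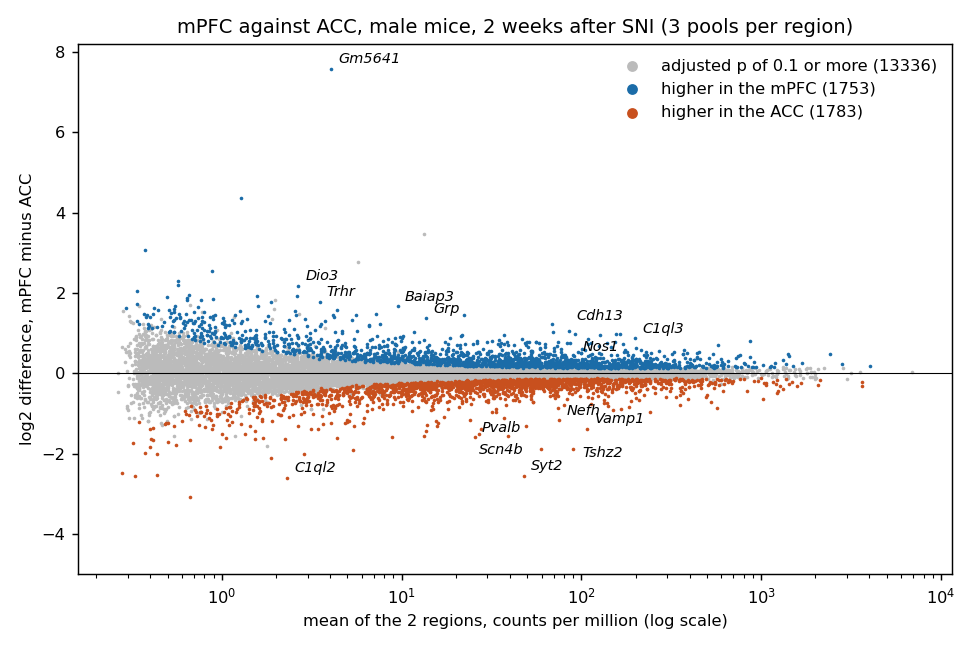
Each point is 1 of the 16872 genes tested, with its mean level over the regions in CPM on a log axis and its log2 difference (mPFC minus ACC) on the vertical axis. Blue points were higher in the mPFC (1753 genes) and orange points in the ACC (1783 genes), and the labelled genes are described in the text. The fitted value of Gm5641 rests on counts near 0 in the ACC and is no measure of its fold.

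Among the genes higher in the ACC with the smallest adjusted p were Scn4b, Syt2 and Vamp1. Scn4b, a sodium channel beta subunit that speeds repeated firing (chr9:45138395-45154152, plus strand), stood at 96.1, 84.1 and 99.6 CPM in the ACC pools and 28.2, 20.6 and 26.8 CPM in the mPFC pools. The lowest ACC pool lay far above the highest mPFC pool, and the difference was −1.88 ± 0.10 (adjusted p = 7.26e-07), or 3.69-fold. Syt2, the calcium sensor of fast transmitter release (chr1:134646677-134762593, plus strand), stood at 86.1, 61.7 and 98.2 CPM in the ACC pools and 15.1, 11.1 and 15.7 CPM in the mPFC pools. Its difference of −2.55 ± 0.15 (adjusted p = 1.22e-06) was 5.87-fold. Vamp1, a vesicle SNARE protein (chr6:125215551-125245964, plus strand), stood at 163, 133 and 170.4 CPM in the ACC pools and 65.1, 54.3 and 60.1 CPM in the mPFC pools, with a difference of −1.38 ± 0.09 (adjusted p = 1.55e-06). Again no pool of one region reached into the range of the other. Syt2 and Vamp1, like Nefm, Kcnab3, Cdh13 and Nos1 below, overlap a gene on the opposite strand, and the strand setting of the counting is not given in the sources used here, so reads of such partners cannot be told apart.

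Pvalb, the calcium buffer that marks fast-spiking interneurons (chr15:78191114-78206400, minus strand), stood at 40.2, 31.1 and 43.9 CPM in the ACC pools and 14.9, 9.85 and 13.3 CPM in the mPFC pools. The groups did not overlap, and the difference was −1.59 ± 0.14 (adjusted p = 1.08e-05). Of the 8 genes on the parvalbumin interneuron list, 4 were higher in the ACC (Syt2, Pvalb, Vamp1 and Kcnc1), 0 were higher in the mPFC, and 4 did not pass the test. The other members of the list lay nearer to 0: Cox6a2 at −0.28, Kcnc2 at −0.13, Erbb4 at −0.03 and Tac1 at 0.25. The median difference of the list was −0.33, beside 0.00 over all genes tested. In pooled tissue, fewer cells of a type and less RNA per cell cannot be told apart. The general GABAergic gene Gad1, which makes GABA, differed by −0.44 ± 0.06 (adjusted p = 0.000634), and its paralogue Gad2 by −0.04 (adjusted p = 0.721). On the general inhibitory list 3 of 10 genes were higher in the ACC and 0 in the mPFC, or 1 without ACC pool 1 or mPFC pool 2. On the general excitatory list 1 of 8 was higher in each region, near the shares of all genes tested (10.4% higher in the mPFC and 10.6% in the ACC).

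Neurofilaments and axonal matrix showed the same direction. Nefh, the heavy neurofilament subunit, stood at 107, 90.3 and 115 CPM in the ACC pools and 46.1, 44.9 and 48.6 CPM in the mPFC pools, and Nefm, the medium subunit, at 325, 288 and 345 CPM in the ACC pools and 162, 167 and 166 CPM in the mPFC pools. All 3 ACC pools were above all 3 mPFC pools for both, with differences of −1.16 ± 0.08 (adjusted p = 2.02e-06) and −0.95 ± 0.06 (adjusted p = 1.88e-06). Hapln4, a link protein of perineuronal nets and nodes of Ranvier, stood at 203, 184 and 199.5 CPM in the ACC pools and 101, 103 and 109 CPM in the mPFC pools, with a difference of −0.91 ± 0.05 (adjusted p = 1.22e-06). Coro6, an actin-binding coronin, stood at 39.6, 37.5 and 42.9 CPM in the ACC pools and 15.7, 13.8 and 12.5 CPM in the mPFC pools, a 2.84-fold difference (adjusted p = 8.19e-07).

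**Figure D2:**
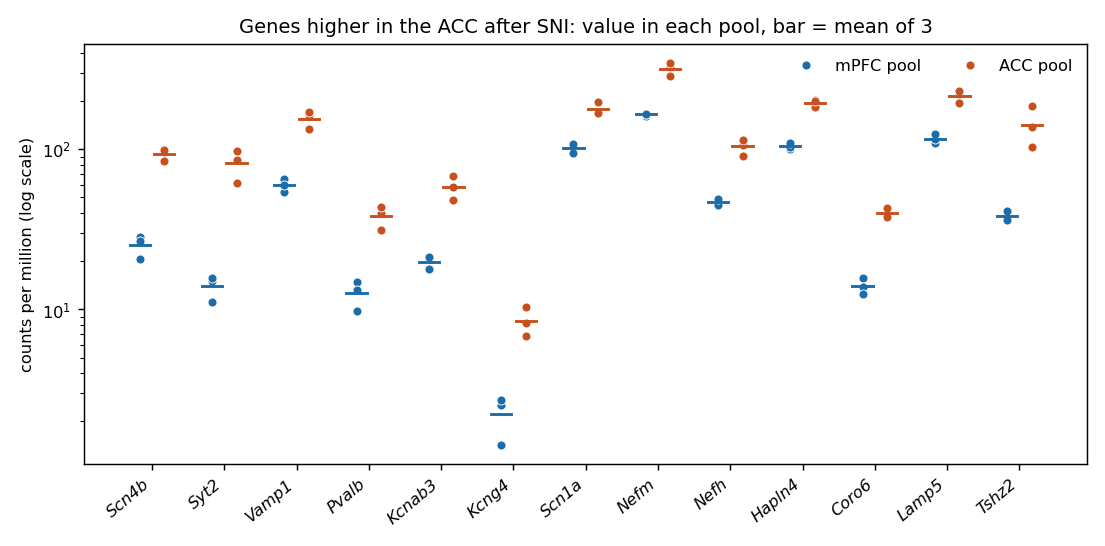
Points are the 3 mPFC pools (blue) and the 3 ACC pools (orange) of male SNI mice for 13 genes higher in the ACC, in CPM on a log axis, and bars are the means of 3 pools. For every gene shown the lowest ACC pool lies above the highest mPFC pool.

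Outside this group, Tshz2, a zinc finger transcription factor of subsets of cortical neurons, stood at 137, 103 and 187 CPM in the ACC pools and 37.4, 36.2 and 41.3 CPM in the mPFC pools. The ACC pools varied among themselves by more than the mPFC pools did, and all lay above them, with a difference of −1.89 ± 0.16 (adjusted p = 7.66e-06). Lamp5, a membrane protein of upper layer and neurogliaform neurons, stood at 223, 195 and 230.4 CPM in the ACC pools and 109, 116 and 125 CPM in the mPFC pools, with a difference of −0.89 ± 0.07 (adjusted p = 6.35e-06). Npnt, an integrin ligand of the extracellular matrix, stood at 36.4, 34.8 and 47.8 CPM in the ACC pools and 13.5, 14.2 and 18.2 CPM in the mPFC pools, with a difference of −1.38 ± 0.12 (adjusted p = 1.46e-05). The secreted factor Wnt10a differed by −1.18 ± 0.09 (adjusted p = 4.63e-06), and Plxdc1, a membrane protein of the plexin domain family, by −0.97 ± 0.07 (adjusted p = 3.41e-06). Neither gene overlapped between the regions. Among the largest differences by size were C1ql2, a synapse organiser of the complement C1q family, at 3.81, 2.63 and 5.48 CPM in the ACC pools and 0.665, 0.366 and 0.93 CPM in the mPFC pools (6.04-fold, adjusted p = 0.000152), and Nrtn, a neurotrophic factor of the GDNF family, at 2.96, 2.66 and 3.54 CPM in the ACC pools and 0.756, 0.439 and 0.93 CPM in the mPFC pools (4.28-fold, adjusted p = 0.00013). Bglap3, of the osteocalcin gene cluster, had 1.11, 0.888 and 1.56 CPM in the ACC pools and 0.151, 0.146 and 0.112 CPM in the mPFC pools, and Klhdc7b, a kelch domain gene, 2, 1.08 and 1.52 CPM in the ACC pools and 0.665, 0.329 and 0.26 CPM in the mPFC pools. These 4 genes were low, and the levels of Bglap3 in the mPFC lay at or just above the floor of 3 counts.

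Among the genes higher in the mPFC with the smallest adjusted p were Nos1, Cdh13 and C1ql3. Nos1, the neuronal nitric oxide synthase (chr5:117781032-117958840, plus strand), stood at 123, 126 and 119 CPM in the mPFC pools and 61.4, 68.9 and 57.3 CPM in the ACC pools. The regions were well apart, with a difference of 0.97 ± 0.06 (adjusted p = 1.90e-06). Cdh13, a cadherin without a transmembrane segment, stood at 119, 109 and 115 CPM in the mPFC pools and 53.2, 60.8 and 51.9 CPM in the ACC pools, a difference of 1.05 ± 0.06 (adjusted p = 1.22e-06). C1ql3, another synapse organiser of the C1q family, stood at 238, 281 and 252 CPM in the mPFC pools and 129.8, 153 and 139.9 CPM in the ACC pools, a difference of 0.87 ± 0.07 (adjusted p = 7.13e-06). The C1q-like genes C1ql2 and C1ql3 thus lay in opposite directions.

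Baiap3, which acts in the release and recycling of dense-core vesicles, stood at 16.4, 14.3 and 12.6 CPM in the mPFC pools and 4.11, 5.17 and 4.41 CPM in the ACC pools, a 3.17-fold difference (adjusted p = 4.63e-06). Syt17, a synaptotagmin, stood at 88.9, 99.2 and 89.9 CPM in the mPFC pools and 41.3, 52.5 and 42.9 CPM in the ACC pools, with a difference of 1.02 ± 0.08 (adjusted p = 7.13e-06). Fxyd6, which modulates the sodium pump, stood at 198, 224 and 193 CPM in the mPFC pools and 101, 119 and 94 CPM in the ACC pools, with a difference of 0.97 ± 0.08 (adjusted p = 7.73e-06). No pool of the ACC reached the lowest mPFC pool for any of the 3. Others of this rank were Lypd1, a modulator of nicotinic receptors (0.76), Arhgef28, a guanine nucleotide exchange factor (0.77), Samd14 (0.85), Wdr6 (0.72), Zcchc12 (0.76) and Pter (0.94), all with adjusted p between 7.13e-06 and 9.36e-06.

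Dio3, the deiodinase that inactivates thyroid hormone (chr12:110279068-110281097, plus strand), stood at 4.53, 5.27 and 3.31 CPM in the mPFC pools and 0.923, 0.734 and 1.22 CPM in the ACC pools. The lowest mPFC pool was well above the highest ACC pool, and the difference was 2.19 ± 0.23 (adjusted p = 4.53e-05), or 4.55-fold. Vegfd, a growth factor of lymphatic and blood vessels, stood at 4.78, 4.32 and 3.35 CPM in the mPFC pools and 0.846, 1.43 and 0.989 CPM in the ACC pools, a 3.82-fold difference (adjusted p = 8.00e-05). Trhr, the receptor of thyrotropin-releasing hormone, stood at 5.41, 6.41 and 4.46 CPM in the mPFC pools and 1.23, 1.74 and 1.75 CPM in the ACC pools, a 3.45-fold difference (adjusted p = 4.38e-05). The low genes Ttc21a, of the cilium (1.96 ± 0.36, adjusted p = 0.00265), and Ccdc60 (1.82 ± 0.40, adjusted p = 0.00824) were of similar rank by size. Snurf, which shares its transcripts with Snrpn, stood at 1.78, 1.28 and 1.12 CPM in the mPFC pools and 0.423, 0.695 and 0.038 CPM in the ACC pools (adjusted p = 0.0206). Its reads cannot be split with certainty from those of Snrpn, and its adjusted p was 0.108 without mPFC pool 1.

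**Figure D3:**
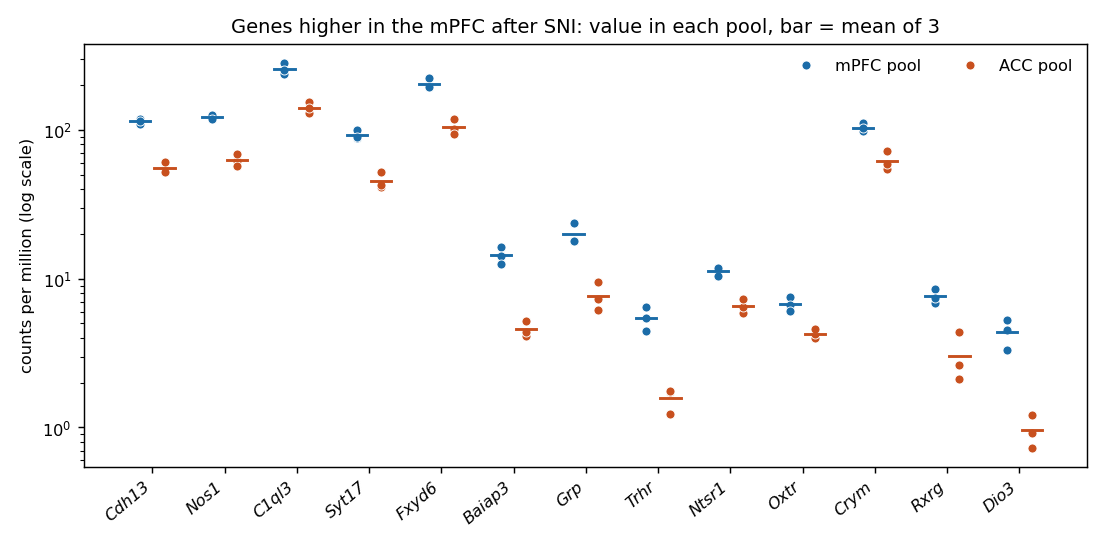
Points are the 3 mPFC pools (blue) and the 3 ACC pools (orange) of male SNI mice for 13 genes higher in the mPFC, in CPM on a log axis, and bars are the means of 3 pools. Every gene shown has its lowest mPFC pool above its highest ACC pool.

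The promoters of 4 of these genes are shown so that genes that lay in opposite directions can be read side by side. They are Scn4b and Vamp1 for the ACC and Nos1 and Dio3 for the mPFC. Each window is the 250 bases before and 50 after the annotated start in RefSeq on GRCm38.p6, all on the plus strand. A gene can have other starts. All 4 starts used lie inside the gene spans given above, so each window holds bases of the annotated gene before its RefSeq start. The Nos1 window lies wholly inside its span. Capitals mark matches on either strand to the GC box (GGGCGG), the TATA box (TATAAA), the extended nuclear receptor half-site (AAGGTCA) or the cyclic AMP response element (TGACGTCA).
Scn4b, chr9:45138374-45138673: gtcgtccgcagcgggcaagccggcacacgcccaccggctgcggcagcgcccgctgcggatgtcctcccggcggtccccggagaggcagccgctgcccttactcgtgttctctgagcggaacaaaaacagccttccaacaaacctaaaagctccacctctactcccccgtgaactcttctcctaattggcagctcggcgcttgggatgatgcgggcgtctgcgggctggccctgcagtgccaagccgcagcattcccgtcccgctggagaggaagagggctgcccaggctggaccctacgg
Vamp1, chr6:125215331-125215630: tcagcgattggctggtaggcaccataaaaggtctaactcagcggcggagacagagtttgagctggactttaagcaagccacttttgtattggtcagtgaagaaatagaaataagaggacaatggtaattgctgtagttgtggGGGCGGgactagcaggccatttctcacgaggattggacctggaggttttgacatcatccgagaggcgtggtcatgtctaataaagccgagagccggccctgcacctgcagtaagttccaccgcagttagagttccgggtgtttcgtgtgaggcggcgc
Nos1, chr5:117866589-117866888: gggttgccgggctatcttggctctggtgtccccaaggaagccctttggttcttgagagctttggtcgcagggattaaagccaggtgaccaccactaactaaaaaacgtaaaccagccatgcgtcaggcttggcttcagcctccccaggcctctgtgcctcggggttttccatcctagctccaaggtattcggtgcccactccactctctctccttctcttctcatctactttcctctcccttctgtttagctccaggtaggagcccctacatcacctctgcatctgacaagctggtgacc
Dio3, chr12:110278980-110279279: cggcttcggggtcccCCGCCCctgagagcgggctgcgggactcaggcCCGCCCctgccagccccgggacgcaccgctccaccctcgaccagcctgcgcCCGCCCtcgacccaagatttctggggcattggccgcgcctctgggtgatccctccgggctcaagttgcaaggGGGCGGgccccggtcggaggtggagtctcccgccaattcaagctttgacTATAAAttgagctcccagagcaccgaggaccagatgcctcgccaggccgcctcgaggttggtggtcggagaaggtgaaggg
Dio3 held 4 GC boxes and a TATA box that began 31 bases before the start, and Vamp1 held 1 GC box. The Scn4b and Nos1 windows held no match. The GC content was 69% for Dio3, 66.3% for Scn4b, 54.7% for Nos1 and 51.7% for Vamp1. Of 32851 RefSeq promoters of 300 bases, 35.7% held the GC box, 13.6% the TATA box, 4.72% the half-site and 1.79% the cyclic AMP element. The matches are a description of these letters and were not related to the levels.

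Potassium channels set the resting potential and the speed of repolarisation. Of 62 channel genes tested, 22 were higher in the ACC and 7 in the mPFC, and 33 did not pass, with a median difference of −0.09. Over all genes tested, 10.6% were higher in the ACC and 10.4% in the mPFC, and the mPFC count of the channels was near that share. Kcnab3, an auxiliary subunit of Shaker channels, stood at 58.1, 48.4 and 68.5 CPM in the ACC pools and 20.6, 17.9 and 21.3 CPM in the mPFC pools (adjusted p = 3.20e-06). Kcng4, a modulatory subunit, stood at 10.3, 6.8 and 8.21 CPM in the ACC pools and 2.54, 1.43 and 2.72 CPM in the mPFC pools, a 3.76-fold difference (adjusted p = 5.50e-05). In both the regions were separate. Kcnh5, a channel of the ether-a-go-go family, differed by −0.70 ± 0.08 (adjusted p = 8.15e-05), and the axonal Shaker genes Kcna1 and Kcna2 by −0.57 ± 0.08 (adjusted p = 0.000444) and −0.44 ± 0.06 (adjusted p = 0.00036). Among the 7 higher in the mPFC were Kcng1 (0.75 ± 0.09, adjusted p = 0.00016) and the calcium-activated channel Kcnn3 (0.54 ± 0.09, adjusted p = 0.00148).

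Sodium, calcium and HCN channel genes split between the regions. Of 31 tested, 14 were higher in the mPFC and 12 in the ACC, beside 10.4% and 10.6% of all genes tested. The other 5 did not pass. The count in the mPFC direction was 8 without ACC pool 1 and 6 without mPFC pool 2. Scn1a, the sodium channel of fast-spiking interneurons, stood at 169.9, 169 and 196 CPM in the ACC pools and 103, 94.2 and 108 CPM in the mPFC pools (adjusted p = 7.66e-06). It was higher in every ACC pool, as Scn4b was. The genes Scn3b (0.59 ± 0.06, adjusted p = 1.76e-05), Scn3a (0.33 ± 0.06, adjusted p = 0.00148) and Scn9a (1.26 ± 0.32, adjusted p = 0.0179) were higher in the mPFC. Scn9a is the sodium channel of pain-sensing neurons of the periphery. Cacna1e, an R-type calcium channel, stood at 426, 450.3 and 451 CPM in the mPFC pools and 282, 312 and 299.9 CPM in the ACC pools (adjusted p = 1.59e-05), with no overlap. The pacemaker channel genes also split, with Hcn2 (−0.40, adjusted p = 0.000576) higher in the ACC and Hcn3 (0.33, adjusted p = 0.0299) and Hcn4 (0.59, adjusted p = 0.0123) higher in the mPFC. Without mPFC pool 2 the adjusted p was 0.104 for Scn9a and 0.133 for Hcn3.

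Genes of vesicle release were called in 27 of 35 cases, beside 21% over all genes, with 16 of 35 higher in the ACC and 11 higher in the mPFC. Families divided between the regions. Cplx1, a complexin that clamps and promotes fusion, stood at 687, 619 and 653 CPM in the ACC pools and 421, 375 and 397 CPM in the mPFC pools, with a difference of −0.72 ± 0.06 (adjusted p = 7.13e-06). Cplx3 (−0.66, adjusted p = 0.00911) and Cplx2 (−0.28, adjusted p = 0.0115) lay in the same direction. The vesicle proteins Sv2c (−0.90, adjusted p = 0.000168) and Sv2b (0.38, adjusted p = 0.000886) lay in opposite directions. Syt10 (0.72, adjusted p = 0.0112), Syt9 (0.48, adjusted p = 0.00834) and Syt17 were higher in the mPFC, opposite to Syt2.

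Among receptors of glutamate, 9 of 24 genes were higher in the mPFC and 3 in the ACC, with a median of 0.12. Over all genes tested, 10.4% were higher in the mPFC and 10.6% in the ACC, and the ACC count of these receptors was near that share. Grm5, a metabotropic receptor, stood at 247, 264 and 272 CPM in the mPFC pools and 189, 194 and 212 CPM in the ACC pools (adjusted p = 0.000525), Grik2, a kainate subunit, at 57.8, 58.9 and 57.2 CPM in the mPFC pools and 40.8, 44.7 and 46.9 CPM in the ACC pools (adjusted p = 0.000796), and Gria1, an AMPA subunit, at 459, 475 and 476 CPM in the mPFC pools and 368, 396 and 348 CPM in the ACC pools (adjusted p = 0.00103). These were differences of 1.31, 1.31 and 1.27-fold, without overlap. Of the 3 higher in the ACC (Grm4, Grin2c and Grin1), the obligate NMDA subunit Grin1 differed by −0.16 ± 0.05 (adjusted p = 0.0528), a call held without ACC pool 3 only and lost without any of the other 5 libraries (adjusted p 0.104 to 0.17). The ACC count was 1 without ACC pool 1 and 1 without mPFC pool 2.

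Of 18 GABA and glycine receptor genes, 4 were higher in the ACC and 8 in the mPFC, beside 10.6% and 10.4% of all genes tested. The glycine receptor subunits Glra2 and Glra3 stood at 16.1, 14.7 and 16.3 CPM in the mPFC pools and 8.69, 10.2 and 8.78 CPM in the ACC pools and at 21.3, 23.4 and 21.2 CPM in the mPFC pools and 10.9, 12.9 and 14.4 CPM in the ACC pools. Both were higher in every mPFC pool (adjusted p = 0.000117 and 0.000131). Gabrq, the theta subunit, differed by 1.40 ± 0.32 (adjusted p = 0.0104). In the ACC direction were Gabrd, the delta subunit of extrasynaptic receptors (−0.40 ± 0.06, adjusted p = 0.00038), and Glrb, the glycine receptor beta subunit (−0.26 ± 0.06, adjusted p = 0.0121).

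Of 36 monoamine and acetylcholine receptor genes, 8 were higher in the mPFC and 7 in the ACC, beside 10.4% and 10.6% of all genes tested. Htr1b, a presynaptic serotonin receptor, stood at 22.5, 20.7 and 23.1 CPM in the mPFC pools and 12.1, 15.6 and 15 CPM in the ACC pools (adjusted p = 0.000601). The serotonin receptor Htr7 stood at 9.84, 8.65 and 11.1 CPM in the ACC pools and 6.92, 4.47 and 5.92 CPM in the mPFC pools (adjusted p = 0.0036), in the other direction. Drd1, the main cortical dopamine receptor, stood at 10.4, 10.5 and 10.6 CPM in the mPFC pools and 7.61, 8.46 and 6.96 CPM in the ACC pools, a difference of 0.45 ± 0.10 (adjusted p = 0.00769), while Chrm3, a muscarinic receptor, was on the ACC side (−0.39 ± 0.06, adjusted p = 0.000769). Of this list, 5 genes were called in the mPFC direction without ACC pool 1 and 4 in the ACC direction without mPFC pool 3.

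Of 21 peptide genes, 8 were higher in the mPFC and 4 in the ACC, beside 10.4% and 10.6% of all genes tested. Grp, gastrin-releasing peptide, stood at 17.8, 23.6 and 18 CPM in the mPFC pools and 6.15, 9.5 and 7.3 CPM in the ACC pools, a 2.59-fold difference (adjusted p = 4.82e-05). Trh, thyrotropin-releasing hormone, stood at 1.21, 0.952 and 0.893 CPM in the mPFC pools and 0.346, 0.541 and 0.342 CPM in the ACC pools (adjusted p = 0.015). Cbln4 and Cbln2, cerebellins that bridge synapses, were higher in the ACC, with differences of −0.90 ± 0.12 (adjusted p = 0.000301) and −0.55 ± 0.07 (adjusted p = 0.000161), as was Penk, the enkephalin precursor (−0.64 ± 0.11, adjusted p = 0.00151). The mPFC count of the list was 4 to 5 without mPFC pool 1, mPFC pool 2 or ACC pool 3.

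Of 27 neuropeptide and opioid receptors, 8 were higher in the mPFC and 2 in the ACC, with a median of 0.14. The shares over all genes tested were 10.4% and 10.6%, and the ACC count was near its share. Ntsr1, a neurotensin receptor of deep-layer neurons, stood at 11.4, 11.9 and 10.5 CPM in the mPFC pools and 5.84, 6.49 and 7.26 CPM in the ACC pools (adjusted p = 0.000311). Oxtr, the oxytocin receptor, stood at 7.5, 6.66 and 6.06 CPM in the mPFC pools and 4, 4.25 and 4.6 CPM in the ACC pools (adjusted p = 0.00328). Hcrtr1, an orexin receptor, stood at 2.96, 3.51 and 3.61 CPM in the ACC pools and 1.87, 1.28 and 1.75 CPM in the mPFC pools (adjusted p = 0.00266), opposite to both. Tacr1, the substance P receptor (0.98 ± 0.24, adjusted p = 0.0145), Mc4r, a melanocortin receptor (0.86 ± 0.16, adjusted p = 0.00356), and Npy2r, a neuropeptide Y receptor (0.85 ± 0.17, adjusted p = 0.00441), were also higher in the mPFC. The opioid receptor genes did not pass the test, with 0.30 ± 0.33 (adjusted p = 0.602) for Oprm1, 0.13 ± 0.14 (adjusted p = 0.592) for Oprk1 and 0.09 ± 0.08 (adjusted p = 0.55) for Oprd1.

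Markers of cortical layers did not move as blocks. On the layer 6 list, 6 of 13 were higher in the mPFC and 2 in the ACC, with a median of 0.17. Over all genes tested, 10.4% were higher in the mPFC and 10.6% in the ACC, and the layer 6 ACC count was near its share. Grp, Ntsr1, Trh and Crym, a thyroid hormone-binding protein that stood at 98, 111 and 102 CPM in the mPFC pools and 54.7, 72.5 and 58.6 CPM in the ACC pools (adjusted p = 0.000104), made up 4 of the 6, with Foxp2 (0.36) and Sulf1 (0.28), both of which lost their call without ACC pool 1, ACC pool 3, mPFC pool 1 or mPFC pool 3 (adjusted p 0.105 to 0.28). Cplx3, a complexin of the deepest layer, and Tle4, a corepressor of layer 6 neurons, were higher in the ACC, with differences of −0.66 ± 0.15 (adjusted p = 0.00911) and −0.26 ± 0.07 (adjusted p = 0.0162), and the ACC count was 4 without ACC pool 3. On the layer 5 list, 4 of 12 were higher in the mPFC and 5 in the ACC, a count that was 2 to 3 without mPFC pool 1, mPFC pool 2 or ACC pool 3. Both Fezf2 (0.28, adjusted p = 0.00518) and Bcl11b (0.29, adjusted p = 0.00445), which specify subcerebral neurons, were higher in the mPFC. Hsd11b1, which reactivates glucocorticoid and marks a layer 5 subset, stood at 15.7, 11.7 and 17.5 CPM in the ACC pools and 7.92, 7.5 and 8.19 CPM in the mPFC pools (adjusted p = 0.000393).

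Among the 5 genes on the layer 4 list, Rspo1, an enhancer of Wnt signals, stood at 14.6, 10.1 and 15.4 CPM in the ACC pools and 4.29, 4.21 and 4.76 CPM in the mPFC pools (adjusted p = 1.71e-05), and Scnn1a, a sodium channel subunit, at 3.5, 3.9 and 6.16 CPM in the ACC pools and 1.69, 1.98 and 1.53 CPM in the mPFC pools (adjusted p = 0.00102). Both were higher in every ACC pool, while Rorb, the defining transcription factor of layer 4, differed by 0.15 ± 0.07 (adjusted p = 0.152). On the layer 2/3 list, 4 of 9 were higher in the mPFC, or 2 without mPFC pool 2, and 3 in the ACC. The shares over all genes tested were 10.4% and 10.6%. The paired upper-layer factors lay in opposite directions, Cux1 at −0.38 ± 0.06 (adjusted p = 0.000822) and Cux2 at 0.23 ± 0.06 (adjusted p = 0.0168, or 0.115 without mPFC pool 2). Otof, otoferlin, stood at 40, 43.9 and 37.3 CPM in the mPFC pools and 20.7, 27.5 and 21.2 CPM in the ACC pools (adjusted p = 0.000139).

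Genes of the other interneuron classes were called in both directions. Over all genes tested, 10.4% were higher in the mPFC and 10.6% in the ACC. On the somatostatin list, 4 of 8 genes were higher in the mPFC and 0 in the ACC. These were Nos1, Grin3a, an NMDA receptor subunit (0.41 ± 0.06, adjusted p = 0.000901), Elfn1, a synapse organiser (0.36 ± 0.08, adjusted p = 0.00611), and Sst itself. Sst stood at 224, 204 and 189 CPM in the mPFC pools and 199.7, 173 and 159 CPM in the ACC pools. The groups overlapped, and the difference of 0.21 ± 0.08 (adjusted p = 0.088) was near the threshold. Its adjusted p was 0.173 to 0.316 without mPFC pool 1, mPFC pool 2, ACC pool 2 or ACC pool 3. On the list of VIP, CCK and neurogliaform interneurons, 4 of 10 were higher in the mPFC, among them Cnr1, the cannabinoid receptor (0.53 ± 0.06, adjusted p = 4.48e-05), and Calb2, calretinin (0.33 ± 0.10, adjusted p = 0.037). The list's largest difference was in the other direction, in Lamp5, which was higher in the ACC (−0.89 ± 0.07, adjusted p = 6.35e-06). The mPFC count was 1 to 2 without ACC pool 2, mPFC pool 2 or mPFC pool 3, and Calb2 lost its call in each of these (adjusted p 0.114 to 0.145). Vip itself differed by 0.07 ± 0.07 (adjusted p = 0.562).

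Markers of neighbouring structures were not all level. Over all genes tested, 10.4% were higher in the mPFC and 10.6% in the ACC. Near these shares were the striatal ACC count and the septal and preoptic counts, 1 of 7 in each direction. Of the claustrum and endopiriform list, Gnb4, a G protein subunit, stood at 33.6, 33.9 and 33.2 CPM in the mPFC pools and 17, 22.6 and 17.7 CPM in the ACC pools (adjusted p = 6.95e-05) and Synpr, synaptoporin, at 103, 116 and 108 CPM in the mPFC pools and 58.3, 67.3 and 66.9 CPM in the ACC pools (adjusted p = 1.04e-05), while the other 4 of 6 did not pass. Of the striatal list, 3 of 12 were higher in the mPFC and 2 in the ACC, or 1 without ACC pool 1, ACC pool 2, mPFC pool 2 or mPFC pool 3, and its summed level was 240.4 to 262 CPM in the mPFC and 237 to 261 CPM in the ACC. Of the olfactory bulb and neuroblast list, Cdhr1, Sox11 and Dcx were higher in the mPFC (3 of 6), with Cdhr1, a cadherin of olfactory bulb output neurons, at 4.17, 4.1 and 4.13 CPM in the mPFC pools and 2.08, 2.16 and 1.9 CPM in the ACC pools (adjusted p = 0.000539). Dcx, doublecortin, differed by 0.23 ± 0.08 (adjusted p = 0.0687), a call lost in DESeq2 (adjusted p = 0.105), with GC correction (adjusted p = 0.132) and without ACC pool 1, ACC pool 2, mPFC pool 1 or mPFC pool 2 (adjusted p 0.125 to 0.259). Of the septal and preoptic list, Slc5a7, the choline transporter, was higher in the mPFC (1.32 ± 0.36, adjusted p = 0.0248) and Zic2 in the ACC (−0.27 ± 0.10, adjusted p = 0.0845). The adjusted p of Slc5a7 was 0.11 without mPFC pool 2, and that of Zic2 was 0.12 to 0.24 without ACC pool 1, ACC pool 2, mPFC pool 2 or mPFC pool 3. Of the choroid plexus list 0 of 5 genes passed edgeR's test, with Ttr and Clic6 at an unadjusted p under 0.05, and 0 passed in DESeq2. Ttr stood at 0.302, 72.3 and 0.372 CPM in the mPFC pools and 4.77, 1.27 and 0.494 CPM in the ACC pools, and its mPFC mean rests on pool 2. Ciliated-cell genes Hydin (1.55 ± 0.29, adjusted p = 0.00324) and Ak7 (1.59 ± 0.42, adjusted p = 0.0234) were higher in the mPFC and Pltp, a lipid transfer protein, in the ACC (−0.34 ± 0.06, adjusted p = 0.00149), 3 of 7 on the ependymal list. The other 4 tested did not pass. Summed, the ependymal list was higher in the ACC, at 76.1 to 85.4 CPM, than in the mPFC, at 67.4 to 71.1 CPM. The part of neighbouring tissue in the regional differences was not tested.

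**Figure D4:**
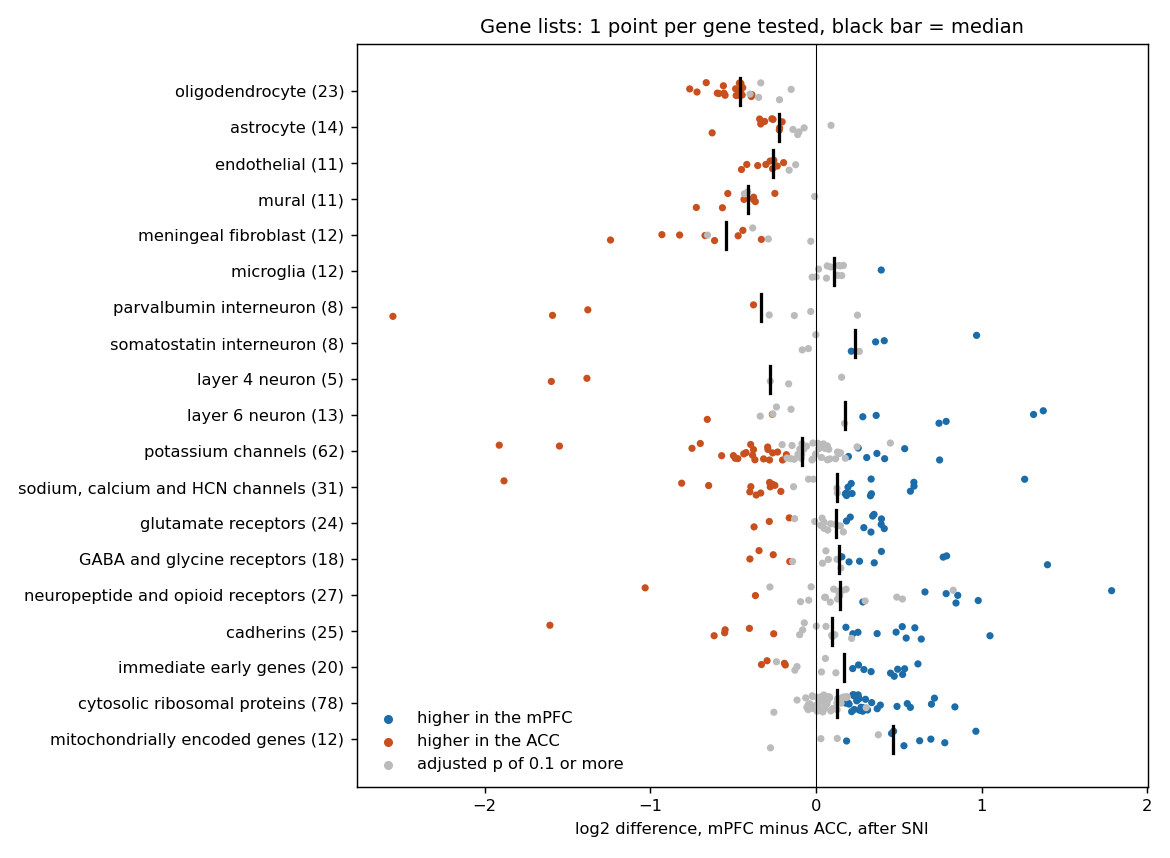
Each point is 1 gene of a list, placed by its log2 difference (mPFC minus ACC) after SNI, with the number of genes tested in parentheses. Blue and orange points were called higher in the mPFC and the ACC, grey points were not called, and black bars are the medians, which lie furthest to the ACC side for the meningeal fibroblast and oligodendrocyte lists and furthest to the mPFC side for the mitochondrially encoded genes.

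Transcription factors and patterning signals set up the cortical fields in development. Of 20 factors that pattern the cortex from front to back, 3 were higher in the mPFC and 5 in the ACC. With 10.4% and 10.6% over all genes tested, the mPFC count was near its share. Bhlhe22 stood at 74.6, 83.5 and 60.4 CPM in the mPFC pools and 40.6, 44.4 and 43.5 CPM in the ACC pools (adjusted p = 0.000148), and Lmo3 differed by 0.41 ± 0.07 (adjusted p = 0.00188). The cofactor Zfpm2 differed by −0.51 ± 0.08 (adjusted p = 0.000583) and was higher in the ACC, as was Tshz2. Of 35 Notch and Wnt pathway genes, 6 were higher in the mPFC (3 without mPFC pool 2) and 7 in the ACC. The R-spondins divided, Rspo1 to the ACC and Rspo2 to the mPFC, where it stood at 44, 52.9 and 49.3 CPM in the mPFC pools and 26, 32.4 and 26.7 CPM in the ACC pools (adjusted p = 7.98e-05).

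Retinoic acid genes also divided by member. The synthesising enzymes Aldh1a1 and Aldh1a2 were higher in the ACC and Aldh1a3 in the mPFC. Aldh1a1 stood at 23.1, 15.4 and 21.8 CPM in the ACC pools and 8.34, 6.66 and 7 CPM in the mPFC pools (adjusted p = 2.49e-05), Aldh1a3 at 5.02, 7.43 and 6.36 CPM in the mPFC pools and 2.88, 3.55 and 2.62 CPM in the ACC pools (adjusted p = 0.00112), and both were without overlap. Rxrg, a retinoid X receptor, stood at 6.89, 8.49 and 7.44 CPM in the mPFC pools and 2.61, 4.36 and 2.13 CPM in the ACC pools (adjusted p = 0.000706). In all, 3 of 16 genes were higher in the mPFC and 4 in the ACC, or 2 without mPFC pool 1. The shares over all genes tested were 10.4% and 10.6%.

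Of 14 thyroid hormone genes, 4 were higher in the mPFC and 4 in the ACC, beside 10.4% and 10.6% of all genes tested. Dio3 and Crym, which lower free hormone in the cell, were on the mPFC side with Thra, the main brain receptor of the hormone (0.45 ± 0.07, adjusted p = 0.00116). On the ACC side, Hr, the corepressor hairless, stood at 54.9, 44.9 and 52.8 CPM in the ACC pools and 26.2, 21.2 and 22.5 CPM in the mPFC pools (adjusted p = 7.13e-06). Klf9 differed by −0.29 ± 0.06 (adjusted p = 0.00687), and Nrgn, neurogranin, by −0.27 ± 0.06 (adjusted p = 0.00511). Hr, Klf9 and Nrgn are among the genes known to respond to the hormone, and whether hormone action differed between the regions was not tested. The list member Slco1c1 was also called on the ACC side. Its call was held without ACC pool 2 and lost without any other library (adjusted p 0.132 to 0.269).

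Adhesion and guidance families were among those with calls on both sides. Of 25 cadherins, 6 were higher in the ACC and 10 in the mPFC, beside 10.6% and 10.4% of all genes tested. The protocadherin Pcdh8 stood at 84, 92.4 and 81.5 CPM in the mPFC pools and 54, 54.7 and 57.3 CPM in the ACC pools (adjusted p = 1.75e-05), and Pcdh17 differed by 0.52 ± 0.05 (adjusted p = 4.01e-05). Pcdh7 stood at 246, 238 and 245 CPM in the ACC pools and 164, 143 and 168 CPM in the mPFC pools (adjusted p = 2.73e-05), in the ACC direction. Of 50 axon guidance genes, 14 were higher in each region. Robo3, a receptor that steers crossing axons, stood at 21.5, 19.4 and 18.9 CPM in the ACC pools and 9.07, 5.67 and 5.43 CPM in the mPFC pools (adjusted p = 2.39e-05), and Sema7a, a membrane-anchored semaphorin, at 243, 224 and 229 CPM in the ACC pools and 140.4, 138 and 154 CPM in the mPFC pools (adjusted p = 7.13e-06). On the mPFC side Plxnc1, the receptor of Sema7a, differed by 0.52 ± 0.06 (adjusted p = 7.98e-05), opposite to its ligand, and Efnb3, an ephrin, by 0.53 ± 0.06 (adjusted p = 8.42e-05).

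Glial and vascular markers were higher in the ACC as groups, apart from those of microglia and oligodendrocyte precursors. Of 23 oligodendrocyte genes, 18 were higher in the ACC and 0 in the mPFC, with a median difference of −0.46. Over all genes tested, 10.6% were higher in the ACC and 10.4% in the mPFC. Mbp, myelin basic protein, stood at 1657, 1142 and 1498 CPM in the ACC pools and 1160.0, 835 and 1082 CPM in the mPFC pools, with overlap between the regions and a difference of −0.48 ± 0.12 (adjusted p = 0.0199). Mag, myelin-associated glycoprotein, stood at 155, 107 and 129.9 CPM in the ACC pools and 101, 67.8 and 89.9 CPM in the mPFC pools, with −0.60 ± 0.13 (adjusted p = 0.00922). Trf, the iron carrier transferrin, stood at 313, 204 and 253 CPM in the ACC pools and 187, 124 and 174 CPM in the mPFC pools (adjusted p = 0.00813), and the gap junction gene Gjb1 differed by −0.76 ± 0.16 (adjusted p = 0.00711). The regions did not overlap for 7 of the 23, which is near the 32.9% of all genes tested. The summed level of the list was 3316 to 4887 CPM in the ACC and 2396 to 3504 CPM in the mPFC, ranges that overlap. Within each of the 3 pool numbers, Mbp was higher in the ACC, and with the pool number as a replicate block edgeR called 22 of the 23 genes. DESeq2 called 10 of the 23 genes. The number called by edgeR was 8 without ACC pool 1, which was the highest in the ACC for Mbp, Mag and Trf, and 10 without mPFC pool 2, which was the lowest in the mPFC for the same 3 genes. Among the lipid and sterol synthesis genes, 7 of 25 were higher in the ACC, or 1 without either of these libraries, and Gal3st1, which makes the myelin lipid sulfatide, differed by −0.47 ± 0.09 (adjusted p = 0.00303).

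Of 10 precursor genes 1 passed, Olig1 (−0.27 ± 0.09, adjusted p = 0.0614), and it was lost without ACC pool 1, mPFC pool 2 or mPFC pool 3 (adjusted p 0.169 to 0.255). That share is that of all genes higher in the ACC. Of 14 astrocyte genes, 9 were higher in the ACC, a count that was 3 without ACC pool 1 and 5 without mPFC pool 2. Fgfr3, a growth factor receptor, differed by −0.34 ± 0.06 (adjusted p = 0.00347), and Gfap, the astrocyte filament, stood at 123, 105 and 118 CPM in the ACC pools and 97.5, 80.8 and 96 CPM in the mPFC pools (adjusted p = 0.0101). Aqp4, the water channel of astrocyte endfeet, differed by −0.07 ± 0.06 (adjusted p = 0.511). Of 12 microglial genes 1 was called, C1qc, a complement subunit, which was higher in the mPFC (0.39 ± 0.08, adjusted p = 0.00719). That count is near the 10.4% of all genes tested that were higher in the mPFC.

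Endothelial genes were higher in the ACC in 9 of 11 cases, beside 10.6% of all genes tested. Abcb1a, the drug efflux pump of the blood-brain barrier, stood at 46.3, 45.4 and 45.1 CPM in the ACC pools and 34.1, 30.5 and 35.6 CPM in the mPFC pools (adjusted p = 0.000484), and Kdr, the VEGF receptor, at 26.1, 23.7 and 22 CPM in the ACC pools and 17.3, 19.2 and 17.3 CPM in the mPFC pools (adjusted p = 0.0035). Of 11 mural cell genes, 8 were higher in the ACC, with a median of −0.41: Pdgfrb, the pericyte growth factor receptor, differed by −0.38 ± 0.08 (adjusted p = 0.00566), Notch3 by −0.38 ± 0.07 (adjusted p = 0.00244) and Abcc9, a channel regulator, by −0.43 ± 0.09 (adjusted p = 0.00784). Of 12 genes of meningeal fibroblasts, which lie on the cortical surface, 8 were higher in the ACC (5 without mPFC pool 1), with a median of −0.54. Igf2, a growth factor, stood at 40.5, 63.2 and 49.6 CPM in the ACC pools and 29.4, 26.7 and 40.4 CPM in the mPFC pools (adjusted p = 0.01), Col1a1, a fibrillar collagen, at 14.1, 25.8 and 16.2 CPM in the ACC pools and 9.7, 8.9 and 13.2 CPM in the mPFC pools (adjusted p = 0.0117), and Ogn, a small matrix proteoglycan, at 4.61, 7.41 and 5.1 CPM in the ACC pools and 2, 1.65 and 3.65 CPM in the mPFC pools (adjusted p = 0.00529). ACC pool 2 was the highest for all 3. The summed meningeal level was 202 to 268 CPM in the ACC and 157 to 194 CPM in the mPFC. Complement and coagulation genes gave 8 of 25 higher in the ACC (4 to 5 without ACC pool 1, mPFC pool 1 or mPFC pool 2), among them Serping1, the C1 inhibitor (−0.81 ± 0.18, adjusted p = 0.00974). Collagen and matrix genes gave 15 of 43 higher in the ACC and 5 higher in the mPFC, the latter led by Col25a1, a neuronal transmembrane collagen (0.48 ± 0.07, adjusted p = 0.000603), and Col23a1 (0.92 ± 0.17, adjusted p = 0.00256). Their mPFC count was near the 10.4% of all genes tested that were higher there.

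Immediate early genes, which neurons switch on with activity, differed in both directions. Of 20 tested, 10 were higher in the mPFC and 4 in the ACC, or 1 without mPFC pool 1, with a median of 0.17. The shares over all genes tested were 10.4% and 10.6%. Npas4, a factor induced by calcium entry, stood at 30.5, 36 and 36.7 CPM in the mPFC pools and 19.9, 23.2 and 24.1 CPM in the ACC pools (adjusted p = 0.000437), and Fosb at 48.3, 57.9 and 51.5 CPM in the mPFC pools and 36.6, 34.2 and 41.1 CPM in the ACC pools (adjusted p = 0.00116). Nr4a3 differed by 0.45 ± 0.07 (adjusted p = 0.000852) and Egr4 by 0.47 ± 0.08 (adjusted p = 0.00147). Arc, a synaptic scaling gene, lay on the ACC side at −0.30 ± 0.09 (adjusted p = 0.0466), as did Egr1 at −0.19 ± 0.06 (adjusted p = 0.0733), and Fos differed by 0.12 ± 0.11 (adjusted p = 0.531). The call of Arc was lost without mPFC pool 1 or mPFC pool 2 (adjusted p 0.111 to 0.152), and that of Egr1 without ACC pool 2, ACC pool 3, mPFC pool 1 or mPFC pool 3 (adjusted p 0.116 to 0.256).

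Ribosomal protein genes were higher in the mPFC in 29 of 78 cases and higher in the ACC in 0, with a median of 0.13. The largest differences were in Rps29 (0.84 ± 0.16, adjusted p = 0.00322), Rps28 (0.71 ± 0.13, adjusted p = 0.00283) and Rpl39 (0.70 ± 0.14, adjusted p = 0.00459). Ribosomal protein genes have many near-identical pseudogenes, so their counts are uncertain. The count was 17 without ACC pool 1, 13 without mPFC pool 1 and 19 without mPFC pool 2. Short genes as a whole lay on the mPFC side, with a median of 0.18 over the 326 genes of exon length under 800 bases. Ribosomal protein genes had a median exon length of 1775.5 bases. The part of gene length was not tested. Of 12 mitochondrially encoded genes, 8 were higher in the mPFC (5 without mPFC pool 1), with a median of 0.46. Their summed level was 16201 to 18013 CPM in the mPFC and 14434 to 17156 CPM in the ACC, ranges that overlap. These genes did not move as a unit: mt-Co2 stood at 698, 847 and 581 CPM in the mPFC pools and 423, 426 and 466 CPM in the ACC pools (adjusted p = 0.000535), while mt-Co1 differed by 0.03 ± 0.05 (adjusted p = 0.759) and mt-Atp6 by −0.27 ± 0.30 (adjusted p = 0.598). The 76 nuclear oxidative phosphorylation genes had a median of 0.00, with 8 called in each direction, which is the share over all genes. Of these, 3 to 14 were called higher in the mPFC and 3 to 11 higher in the ACC when a library was left out, the fewest without ACC pool 1 or mPFC pool 1 for the mPFC and without mPFC pool 2 for the ACC.

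After sham surgery, the same contrast in male mice called 2383 of 16831 genes (14.2%). The order of the sham and SNI counts turned with the fit. With the trend of each library with GC content removed, the counts were 4390 after sham and 4358 after SNI, and in 1 model over the 12 male libraries they were 3125 and 2932. The sham count was 1152 without sham mPFC pool 2, 1135 without sham mPFC pool 3 and 4654 without sham ACC pool 3. Over 16553 genes tested in both, 3520 were called after SNI and 2349 after sham, of which 1751 were called in both with the same direction. They make up 49.7% of the SNI calls and 74.5% of the sham calls, and 2 genes were called in opposite directions. Of the 3520 SNI calls, 3398 (96.5%) had the same sign after sham. The leading genes had the same direction without injury. Scn4b differed by −1.95 after sham (adjusted p = 7.64e-06), Syt2 by −2.58 (adjusted p = 2.26e-05), Pvalb by −1.70 (adjusted p = 1.31e-05), Nos1 by 1.17 (adjusted p = 7.64e-06), Cdh13 by 1.41 (adjusted p = 6.65e-06) and Dio3 by 2.64 (adjusted p = 0.000103).

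**Figure D5:**
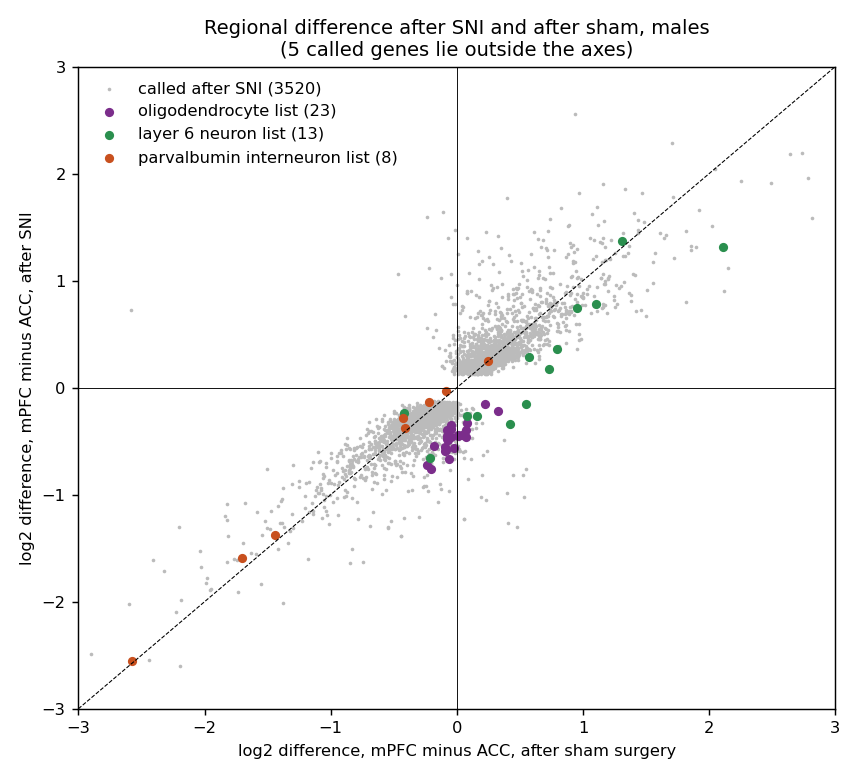
Grey points are genes called after SNI and tested after sham surgery (3520, with 5 outside the axes), placed by their log2 difference (mPFC minus ACC) after sham and after SNI, and the dashed line marks equal values. Coloured points are all tested members of 3 lists: the parvalbumin genes lie near the line, while all 23 oligodendrocyte genes lie below it, with a median of −0.05 after sham and −0.46 after SNI.

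Whether the regional difference itself changed with surgery was tested as an interaction over the 12 male libraries. It called 0 of 17504 genes (0%) in edgeR, with 559 genes (3.19%) at an unadjusted p under 0.05, while DESeq2 called 3 and edgeR without the low-count filter 128. It called 1 gene without sham ACC pool 2, 1 without sham ACC pool 3 and 0 without any other library. The number of genes at an unadjusted p under 0.05 was 1817 of 17867 without sham ACC pool 3, and 413 to 811 without any other library. The oligodendrocyte list had a median of −0.05 after sham, with 0 of 23 genes higher in the ACC and 1 in the mPFC, against 18 higher in the ACC after SNI. Over all 16831 genes tested after sham, 1128 were higher in the ACC and 1255 in the mPFC. Of the oligodendrocyte genes, 11 had an unadjusted interaction p under 0.05, and none passed the adjustment. Mbp stood at 1493, 1352 and 1434 CPM in the sham mPFC pools and 1626, 1569.6 and 1319 CPM in the sham ACC pools, with an interaction of −0.40 (unadjusted p = 0.0397, adjusted p = 1, edgeR). These genes share their pools and are not independent.

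The layer 6 list had a median of 0.58 after sham and 0.17 after SNI, and 8 of its 13 genes had an unadjusted interaction p under 0.05. Syt6, a synaptotagmin of layer 6, differed by 0.55 (adjusted p = 0.0152) after sham and by −0.15 (adjusted p = 0.347) after SNI, with an unadjusted interaction p of 0.00118. None of the 13 passed the adjustment either. The immediate early genes gave 3 of 20 higher in the mPFC and 5 in the ACC after sham, with a median of −0.05 and 4 genes at an unadjusted interaction p under 0.05. The meningeal list, by contrast, had 8 of 12 higher in the ACC after sham, and 0 of 12 at an unadjusted interaction p under 0.05.

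The smallest interaction p-values were in low or overlapping genes. The enzyme gene Gcat has 2 overlapping entries in the annotation whose counts traded places. The entry ENSMUSG00000006378 (chr15:79030874-79038353, plus strand) was higher in the ACC after SNI, with a difference of −0.62 ± 0.10 (adjusted p = 0.000972), with an interaction of −0.82 (unadjusted p = 5.89e-05, adjusted p = 0.685). The entry ENSMUSG00000116378 (chr15:79030901-79042531, plus strand) had 112, 54 and 53 counts in the mPFC pools after SNI, and the ACC pools had 0, 3 and 6. Summed over both, Gcat stood at 9.37, 8.37 and 8.5 CPM of all counted reads in the mPFC and 9.79, 9.34 and 10.4 CPM in the ACC, so its regional values are uncertain. The protein-coding gene model Gm16867 differed by −0.14 after SNI and −0.83 after sham, and Gm45799 by −0.23 and 1.22. Neither passed the adjusted interaction test in edgeR (adjusted p = 0.685 and 0.685). Among genes called after SNI and tested but not called after sham, the smallest interaction p-values were those of the Gcat entry ENSMUSG00000006378, Gm10221 (0.000338), Gm5641 (0.000492) and Sgk2, a kinase related to SGK1 (0.000872). Sgk2 stood at 1.73, 1.78 and 2.17 CPM in the ACC pools and 1.15, 0.769 and 0.93 CPM in the mPFC pools.

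In female mice after SNI, the contrast called 4668 of 16930 genes (27.6%), or 2878 without female ACC pool 1. Over 16615 genes tested in both sexes, 2329 were called in both with the same direction, 66.3% of 3515 male and 50.4% of 4622 female calls, and 2 were called in opposite directions, Col1a2 and Gm21986. Of the male calls, 3302 (93.9%) had the same sign in females. Scn4b differed by −2.25 in females (adjusted p = 5.34e-07), Syt2 by −2.81 (adjusted p = 8.50e-08), Nos1 by 1.23 (adjusted p = 1.24e-06) and Dio3 by 3.14 (adjusted p = 2.15e-06). Over 16444 genes tested in all 3 contrasts, 1509 were called in each with the same direction, 783 higher in the mPFC and 726 higher in the ACC.

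The region by sex interaction over the 12 SNI libraries called 1 of 17533 genes (0.0057%), with 1422 (8.11%) at an unadjusted p under 0.05. It was Gm5641 (chr3:54481438-54482925, plus strand), a transcribed processed pseudogene with 527, 132 and 93 counts in the male mPFC and 0, 0 and 3 in the male ACC pools. Its mean of 8.09 CPM in the male mPFC was at least 70.3-fold higher than the ACC floor of 3 counts per library. Without mPFC pool 1 the mean was 4.12 CPM and the bound 35.8-fold. In females it differed by −0.82 (adjusted p = 0.126), and the adjusted interaction p was 0.0663. The interaction called 3 genes with a replicate block, 22 in DESeq2, Gm5641 not among them, 0 with GC correction, 0 with at least 10 counts in every library, 20 without male ACC pool 3, and 0 without male ACC pool 1, male ACC pool 2, any of the 3 female ACC pools or female mPFC pool 3. The filter of at least 10 counts in every library drops Gm5641 before the test. The oligodendrocyte list was on the ACC side in females too, with 20 of 23 called and a median of −0.74, and 0 of its genes had an unadjusted interaction p under 0.05. Over all 16930 genes tested in females, 2351 were higher in the ACC and 2317 in the mPFC. For the meningeal list 0 genes were higher in the ACC and 3 in the mPFC in females, with a median of 0.06, and 9 of 12 had an unadjusted p under 0.05 without passing the adjustment. The mitochondrially encoded genes gave a median of −0.10 in females and 0.01 in sham males, beside 0.46 in SNI males, or 0.36 in SNI males with GC correction. Of the 12, 8 had an unadjusted p under 0.05 in the interaction with sex and 4 in that with surgery, and none passed the adjustment in either.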

How the data were processed

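The authors deposited raw counts per gene for each library, 1 table per region and sex, without normalisation. The submitters' processing notes name Trimmomatic 0.36, Bowtie2 2.33, HISAT2 2.1.0, HTSeq 0.9.1, edgeR 3.34.0 and the build GRCm38. The annotation release and the strand setting of the counting are not given in the sources used here. All 33364 gene identifiers matched GENCODE release M21, which gave symbols, positions and lengths.

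Counts of the male mPFC and ACC tables were joined. Genes were kept by filterByExpr, libraries were scaled by TMM, and edgeR 4.0.16 (limma 3.58.1, R 4.3.3) gave the quasi-likelihood test with Benjamini-Hochberg adjustment over all genes tested. A gene was called at an adjusted p under 0.1, and the SE is the log2 difference divided by the square root of its F statistic. With 3 pools per region an exact permutation test cannot go below p = 0.1, so none was used for single genes. P-values weigh a difference against the spread between pools. Interactions were fitted over 12 libraries. Before use, the fit was run on simulated counts with set fold changes, all larger than the median called difference. The simulation held no trend with GC content and used the same spread for every gene, so it does not bear on small differences in these data. Alternatives were DESeq2 1.42.0, RLE size factors, other low-count filters, edgeR's current quasi-likelihood method, a replicate block, a correction for GC content (loess span 0.4), 1 model over the 12 male libraries, and each library left out in turn. The floor of 3 counts covers counting error only.

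Genes were named by a rule: the 12 in each direction with the smallest adjusted p and no overlap, the 8 protein-coding genes in each direction with the largest difference at 1 CPM or more, Dio3, Npnt, Pvalb and Kcnab3, up to 4 called members of each of 44 lists with those that define a list's name, and the leading genes of each interaction. Other list members were named after their values were seen, as were the 4 promoters. The members and lists were chosen with earlier results of these data known. Some genes that the rule names are not reported here.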

Additional observations from a re-analysis of the deposited data

Results flagged for a closer look

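Gm5641, a transcribed processed pseudogene, had a region by sex interaction past the threshold after SNI, at an adjusted p of 0.0663 in edgeR. All 3 male mPFC pools, with 527, 132 and 93 counts, were above all 3 male ACC pools, with 0, 0 and 3 counts. In females the difference did not pass the test. No gene passed the interaction test without male ACC pool 1, without male ACC pool 2, without female mPFC pool 3 or without any of the female ACC pools, and none passed with GC correction. None passed with at least 10 counts in every library either, but that filter drops Gm5641 before the test because of its male ACC counts. The 22 genes that DESeq2 called did not include Gm5641. Its counts were also uneven after sham, at 331, 284 and 0 in the male ACC pools and 0, 56 and 172 in the female mPFC pools. The cause was not tested.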

How the results depend on the processing

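The count of 3536 genes called after SNI lay between 2132 and 3838 when 1 library was left out, that of genes higher in the mPFC (1753) between 1030 and 1954, and that of genes higher in the ACC (1783) between 1102 and 1884. It was 2967 in DESeq2, 3535 with RLE size factors, 3985 without a low-count filter, 3615 with at least 10 counts in every library, 3602 with the current quasi-likelihood method, 4358 with GC correction and 2932 in 1 model over the 12 male libraries, all within 1.5 times. The sham count of 2383 moved to 3125 in the 12-library model, to 4390 with GC correction, to 4366 with GC correction and a replicate block, and to between 1135 and 4654 when 1 library was left out. Its share higher in the mPFC was 52.7%, and 42% without the low-count filter. The female count of 4668 lay between 2878 and 5455. The region by surgery interaction called 3 genes in DESeq2, 128 without the low-count filter and 0 to 1 with 1 library left out. The region by sex interaction called 1 gene, against 22 in DESeq2, 367 without the filter, 0 with at least 10 counts in every library, 0 with GC correction, 3 with a replicate block, 3 with both, and 0 to 20 with 1 library left out. The filter of at least 10 counts in every library drops Gm5641, the 1 gene of the main fit, before the test. The cause of the other moves was not tested.

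Over all genes tested, the deviations of same-numbered pools of the 2 regions correlated at −0.054, 0.023 and 0.056, and over genes above 8 CPM at 0.113, 0.285 and 0.176, with each pool highest for its own number in the second set, a hint of pairing from the data and not from the design. As the check depended on the genes used, the fit without the block was kept. A replicate block gave 4469 calls after SNI and 2245 after sham, and none of the 167 genes named by the fixed rule lost its call. Of these genes (other list members such as Arc, Egr1, Grin1, Foxp2, Sulf1, Scn9a, Hcn3 and Cux2, which also lost calls, are not in this tally), 35 calls of 1002 were lost over the fits with 1 library left out, 3 in DESeq2 (Olig1, Dcx and Zic2), 1 with GC correction (Dcx) and 5 in the 12-library model (Npas4, Slc32a1, Cck, Zic2 and Sst), and none changed direction. Genes near the floor of 3 counts are at the limit of what this depth resolves.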
